A study of Mus musculus with 12 samples.

Results

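The genes described here are 32 components of DNA repair and of the DNA damage checkpoint. They are a named list of known repair genes, set with earlier results of these data known and not by a cutoff on their values. Each was read from the probe set of that gene with the highest mean over the 12 arrays, among 18193 genes on the array. A gene was tested where that probe set had a log2 value above 5 in 3 or more arrays, which 23 of the 32 did, among 9120 genes tested in all. By role, the list holds 10 genes of double-strand break sensing and signalling, 3 of homologous recombination, 5 of end joining, 5 of base excision and single-strand break repair, 4 of nucleotide excision repair, 3 of mismatch repair and 2 of the Fanconi anemia pathway.

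Ionising radiation breaks DNA strands and oxidises bases. Double-strand breaks are bound by sensor complexes that activate the kinases Atm and Atr, which mark the flanking chromatin, halt the cell cycle through the checkpoint kinases, and hand the ends to end joining or, in dividing cells, to homologous recombination. Oxidised bases and single-strand breaks go through base excision repair, and bulky lesions through nucleotide excision repair. Microglia, the resident macrophages of the brain, divide seldom in the healthy adult, so end joining and excision repair are the routes open to most of them, and much of this machinery is controlled at the level of protein modification rather than transcript abundance.

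Female mice from the same supplier were compared in 4 groups of 3, with 1 Affymetrix array per mouse (12 arrays). The groups were C57BL/6 mice given a single dose of 10 Gy of X-rays, C57BL/6 mice given sham irradiation, Balb/c mice given 10 Gy and Balb/c mice given sham irradiation. The animals were 6.5 weeks old at treatment, under ketamine and xylazine, with a 1 cm field over the forebrain, and 10.5 weeks old 1 month later, when CD11b+ cells were sorted from the hippocampus. Each array held amplified RNA from 5000 to 10000 cells of 1 mouse, so p-values measure the spread between mice, and the number of arrays limits the precision. No genetic change was introduced in either strain, but Balb/c mice are known to carry coding variants of Prkdc that lower its protein, which a transcript level does not show. The late time means that the values describe the month after exposure and not the first hours of repair.

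The sorted cells carried microglial markers throughout. Of 10 listed microglial genes 9 had a probe set here, all 9 passed the filter, and their summed level lay between 17.0 and 17.2 on the log2 scale in every group. The 6 T and NK cell genes with a probe set were never above 5. Oligodendrocyte genes were present at high levels, with all 5 above the filter and summed log2 levels between 15.1 and 16.0 over the 12 arrays. Of 8 neuron genes 6 passed the filter, with sums between 9.18 and 10.5. No oligodendrocyte or neuron gene was called after irradiation in either strain. Monocyte genes moved with treatment, with summed log2 levels of 11.9 to 12.1 in irradiated against 10.3 to 11.5 in sham C57BL/6 arrays, and 11.6 to 11.8 in irradiated against 10.4 to 10.7 in sham Balb/c arrays. Of 7 monocyte genes tested, 3 were called higher after irradiation in C57BL/6 and 2 in Balb/c. The 7 astrocyte genes summed to 12.9 to 13.6 in irradiated against 12.2 to 12.8 in sham C57BL/6 arrays, and to 13.02 to 13.9 in irradiated against 12.4 to 12.9 in sham Balb/c arrays, and 2 of 7 were called higher in Balb/c. In C57BL/6 all 7 differences of the border-associated macrophage genes were above zero, 6 with an unadjusted p under 0.05 and 0 called, with a median log2 difference of 0.93. Averaged over strains, 6 of 7 border-associated macrophage, 5 of 7 astrocyte and 5 of 7 monocyte genes were called higher. Of the 9 microglial genes 1 was called lower on average, Siglech, by a log2 difference of -0.38 (limma, adjusted p = 0.0184). That call was lost without the 2 arrays named below as standing apart. Of 4 neutrophil genes tested 2 were called higher in irradiated Balb/c arrays, where the sum was 9.74 to 11.8 against 6.76 to 7.32 in sham, while Mpo and Elane were never above 5. In Balb/c, 2 of 7 border-associated macrophage genes and 2 of 5 endothelial and pericyte genes tested were also called higher, with summed levels of 13.6 to 13.9 in irradiated against 12.9 to 13.2 in sham arrays for the first and 13.4 to 13.7 against 12.1 to 13.03 for the second, while Pecam1 and Cdh5 were never above 5. The part of these other cells in the differences below was not tested, and in such a sort fewer cells of a type and less RNA per cell cannot be told apart. Among the arrays, Balb/c irradiated replicate 2 stood apart by its 3' excess of Actb and Gapdh signal, a sign of shortened RNA products, at 4.82 on the log2 scale against 3.50 to 4.21 in the others. The lowest mean correlation with arrays of the same group, 0.966, was that of C57BL/6 irradiated replicate 3. C57BL/6 irradiated replicate 2 was close to it at 0.968, so by this measure replicate 3 stood apart only slightly. Balb/c irradiated replicate 2 and C57BL/6 irradiated replicate 3 are the 2 arrays that are said below to have stood apart. The signal of the 18S ribosomal RNA control probe sets was lower in irradiated arrays, at 11.7 ± 0.12 in irradiated against 12.2 ± 0.13 in sham C57BL/6 arrays and 11.2 ± 0.61 in irradiated against 12.2 ± 0.22 in sham Balb/c arrays (log2, SD, n = 3 each). The mean difference was -0.74, with p = 0.005 by exact permutation in a two-sided test, the smallest that 400 rearrangements can give, and its part in the irradiation results was not tested. The calls of named repair genes that were lost without both arrays are stated beside them.

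Of the 9 genes below the filter, several belong to homologous recombination and the Fanconi anemia pathway. Brca2, which acts in homologous recombination, lay between 4.12 and 5.15 on the log2 scale over the 12 arrays, and Rad52, a strand-annealing protein, between 2.69 and 4.16. Fancd2 lay between 2.23 and 2.41, while Fanca and the helicase subunit Ercc2 were at about 2.23 in every array, which is the bottom of the scale. The glycosylase Ogg1, which removes oxidised guanine, lay between 4.41 and 4.75, and the mismatch repair genes Msh3 and Pms2 between 4.61 and 5.26 and between 3.08 and 3.89. Chek1, the checkpoint kinase downstream of Atr, had log2 values of 3.72, 4.04 and 4.50 in irradiated C57BL/6 arrays, against 3.01, 2.23 and 3.66 in sham C57BL/6 arrays. Those arrays did not overlap, but all 6 values lay below the filter, and in the fit with no filter the log2 difference was 1.12 (limma, adjusted p = 0.380). A low value on this array is a bound set by the probe set as well as the transcript, so these 9 genes were not measured well enough to compare.

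Of the 23 tested genes, 22 exceeded the filter in all 12 arrays. The exception was Brca1, which exceeded it in 4 arrays, all of them irradiated, and so entered the test only through the arrays in which it was high.

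**Figure D1:**
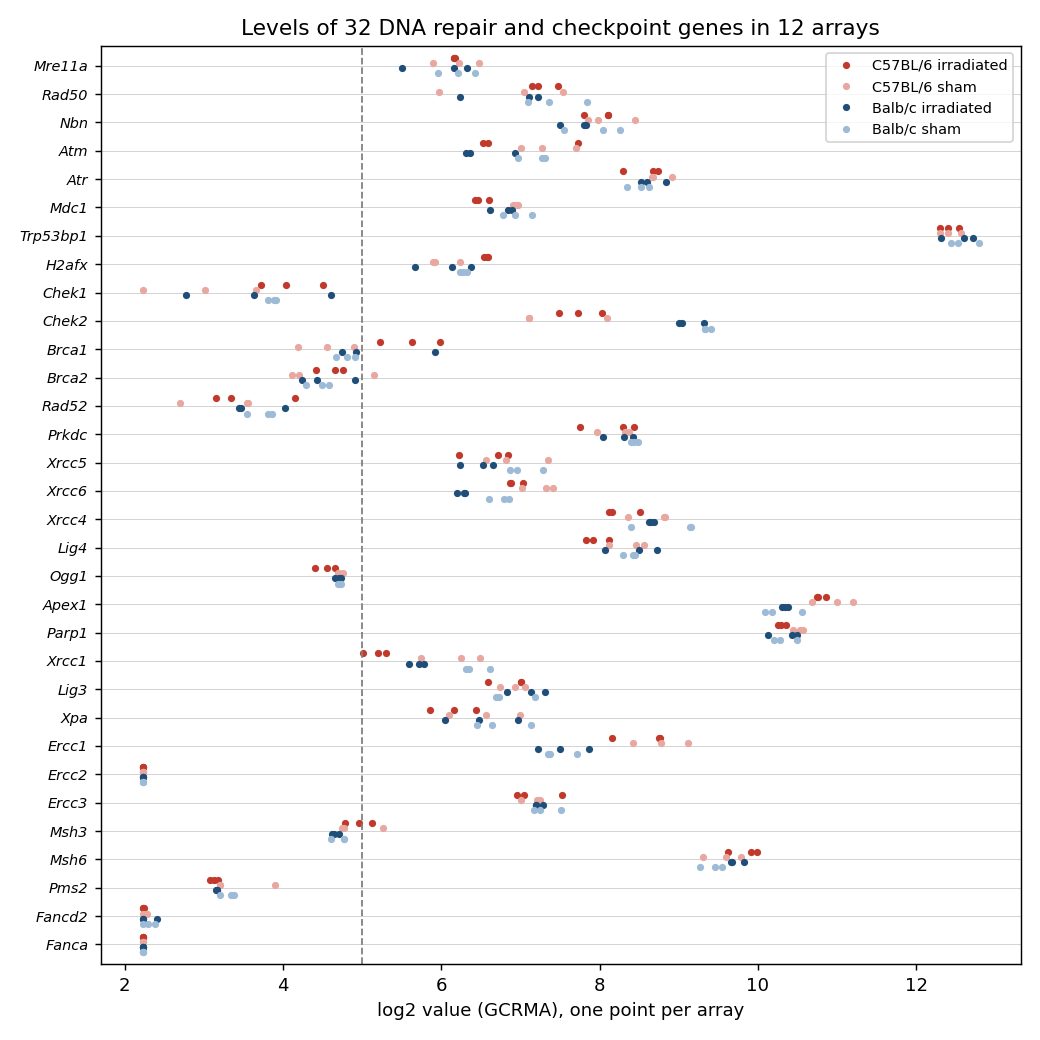
Log2 values (GCRMA) of the 32 genes, 1 point per array, with genes grouped by role from break sensing at the top to the Fanconi anemia pathway at the bottom and the 4 groups in separate colours. The dashed line is the filter at 5, which 23 genes passed, and the columns of points for Fanca and Ercc2 lie at the bottom of the scale at about 2.23. Levels of different genes come from different probe sets and are not comparable with each other.

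In C57BL/6 mice, irradiation lowered Xrcc1 to about 1.98-fold below its sham level 1 month later, and no other repair gene passed the test. That is 1 of 23 genes called lower and 0 higher, against 1.46% of all tested genes called lower and 3.67% called in either direction (limma, Benjamini-Hochberg adjusted p under 0.05 over all genes). Before adjustment, 6 of the 23 had p under 0.05 in limma, Brca1 among them, against 21.3% of all tested genes. Of the 23, 17 had a difference below zero, as did 5002 of all 9120 tested genes. The median log2 difference was -0.17 for the 23 and -0.04 over all tested genes.

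Xrcc1 is the scaffold that holds the polymerase and ligase of single-strand break repair at the lesion. Its log2 values were 5.31, 5.20 and 5.01 in irradiated C57BL/6 arrays, against 6.49, 6.24 and 5.75 in sham C57BL/6 arrays. All irradiated arrays lay below all sham arrays, the sham array of replicate 3 was the nearest to them, and the irradiated values lay close to the filter at 5. The log2 difference was -0.99 ± 0.18 (SE), with an adjusted p of 0.0170 in limma. The call was lost without C57BL/6 sham replicate 2 (adjusted p = 0.0550), without C57BL/6 irradiated replicate 3 (adjusted p = 0.0712) and without both arrays that stood apart (adjusted p = 0.0907), with log2 differences of -0.94, -0.90 and -0.90. It was also lost with no filter on low values (adjusted p = 0.0542) and in a fit of the compared groups alone (adjusted p = 0.101).

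H2afx, Mdc1 and Brca1 assemble at double-strand breaks and had the next smallest p-values in C57BL/6 mice, none past the threshold. H2afx (H2ax in current annotation), the histone variant that Atm phosphorylates beside a break, had log2 values of 6.54, 6.59 and 6.58 in irradiated arrays, against 5.92, 6.23 and 5.90 in sham arrays. Its arrays did not overlap, irradiated arrays were higher, and the log2 difference was 0.55 ± 0.17 (limma, adjusted p = 0.0910).

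Mdc1, the adaptor that binds this phosphorylated histone and gathers further repair proteins, had log2 values of 6.43, 6.46 and 6.60 in irradiated C57BL/6 arrays, against 6.91, 6.95 and 6.97 in sham C57BL/6 arrays. The irradiated arrays were lower without overlap, by a log2 difference of -0.44 ± 0.12 (limma, adjusted p = 0.0729).

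Brca1, a ubiquitin ligase subunit that favours end resection and recombination, had log2 values of 5.22, 5.98 and 5.64 in irradiated C57BL/6 arrays, against 4.56, 4.18 and 4.90 in sham C57BL/6 arrays. The irradiated arrays were higher without overlap, and all 3 sham arrays lay below the filter. The log2 difference was 1.07 ± 0.30 (limma, adjusted p = 0.0800). H2afx passed the threshold when Balb/c irradiated replicate 2, an array outside this comparison that enters only the shared spread, was left out (limma, adjusted p = 0.0367). Brca1 had an adjusted p of 0.0316 in that fit, but it entered the test only through irradiated arrays, so this is a description.

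Genes that had non-overlapping arrays in C57BL/6 numbered 2 higher (Brca1 and H2afx) and 4 lower (Xrcc1, Mdc1, Lig4 and Parp1) of 23. The same separation was found for 11.4% of all tested genes upward and 15.1% downward. Brca1 entered the test only through irradiated arrays, so its separation is a description and is not to be weighed against these shares. Lig4, the ligase of end joining, had log2 values of 7.92, 7.83 and 8.11 in irradiated arrays, against 8.12, 8.46 and 8.57 in sham arrays, a log2 difference of -0.43 ± 0.17 (limma, adjusted p = 0.191). Parp1, which senses strand breaks and recruits Xrcc1, had log2 values of 10.36, 10.29 and 10.25 in irradiated arrays, against 10.53, 10.45 and 10.57 in sham arrays, a log2 difference of -0.22 ± 0.12 (limma, adjusted p = 0.325). Other measured probe sets of Parp1 had log2 differences of -0.46, -0.07 and 0.09 in C57BL/6. In Balb/c the probe set used had 0.03 and the others, in the same order, -0.35, -0.58 and 0.01. None of these was called over all probe sets. Of the 22 genes not called, the 95% intervals of 18 lay within 1 log2 unit of zero on both sides, and those of Atm, Brca1, Rad50 and Xpa reached beyond it.

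**Figure D2:**
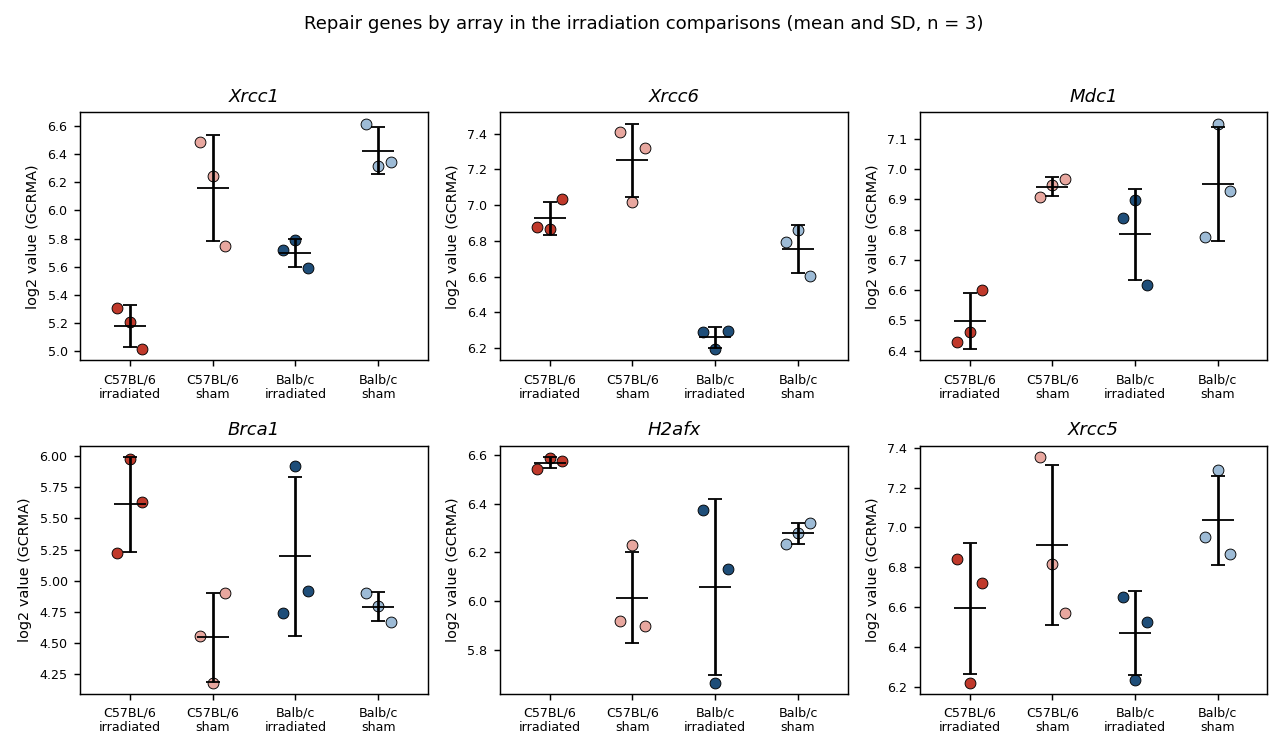
Log2 values (GCRMA) by array for Xrcc1, Xrcc6, Mdc1, Brca1, H2afx and Xrcc5, with irradiated arrays left of sham arrays in each strain. Points are arrays and bars the mean and SD of 3 arrays. In Xrcc1 the irradiated arrays lie below the sham arrays of their strain in both strains, in H2afx and Mdc1 irradiated and sham arrays separate only in C57BL/6, and 1 irradiated Balb/c array sets the Brca1 spread.

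In Balb/c mice, irradiation lowered Xrcc1 by about 1.66-fold and Xrcc6 by about 1.41-fold. These were 2 of 23 genes called lower and 0 higher, against 2.89% of all tested genes called lower and 6.15% in either direction. Before adjustment, 3 of the 23 had p under 0.05 in limma, against 22.8% of all tested genes. The median log2 difference of the 23 was -0.18, against -0.04 over all tested genes. Of the 23, 15 lay below zero, as did 5093 of all 9120 tested genes.

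Xrcc1 had log2 values of 5.72, 5.79 and 5.59 in irradiated Balb/c arrays, against 6.62, 6.31 and 6.35 in sham Balb/c arrays. The 2 groups did not overlap, and the log2 difference was -0.73 ± 0.18 (limma, adjusted p = 0.0391). The call remained without C57BL/6 sham replicates 1 or 3 and without C57BL/6 irradiated replicate 3, and was lost without each of the other 9 arrays, with the highest adjusted p, 0.131, when Balb/c sham replicate 1 was left out. The log2 difference stayed between -0.78 and -0.63 in these fits, and without both arrays that stood apart it was -0.77 (adjusted p = 0.0784). The call was also lost with the 3' excess as a covariate (adjusted p = 0.170), with no filter on low values (adjusted p = 0.1005) and with trend and robust moderation (adjusted p = 0.0586).

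Xrcc6 encodes a subunit of the Ku ring, which threads onto broken ends and starts end joining. Its log2 values were 6.29, 6.19 and 6.29 in irradiated Balb/c arrays, against 6.80, 6.86 and 6.60 in sham Balb/c arrays. Irradiated arrays were all lower, and the log2 difference was -0.49 ± 0.13 (limma, adjusted p = 0.0439). The call remained without C57BL/6 sham replicates 1 or 2, C57BL/6 irradiated replicate 3 or Balb/c sham replicate 3 and was lost without each of the other 8 arrays, at an adjusted p of up to 0.145 without Balb/c sham replicate 2, with log2 differences between -0.57 and -0.44. Without both arrays that stood apart it was -0.46 (adjusted p = 0.118). The call was lost with the 3' excess as a covariate too (adjusted p = 0.229), and with the replicate number as a block (adjusted p = 0.0599), no filter, all probe sets as features, trend and robust moderation, a fit of the compared groups alone or a demand for 1.5-fold.

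In Balb/c, non-overlapping arrays were found for 1 gene upward (Msh6) and 5 downward (Xrcc1, Xrcc6, Xrcc5, Atm and Chek2) of 23, against 12.8% upward and 16.3% downward over all tested genes. Xrcc5, the partner of Xrcc6 in the Ku ring, had log2 values of 6.65, 6.23 and 6.52 in irradiated arrays, against 6.95, 7.29 and 6.86 in sham arrays, a log2 difference of -0.57 ± 0.23 (limma, adjusted p = 0.169). Atm, the kinase that opens the signalling response to a double-strand break, had log2 values of 6.32, 6.36 and 6.93 in irradiated arrays, against 7.27, 7.31 and 6.97 in sham arrays, a log2 difference of -0.65 ± 0.31 (limma, adjusted p = 0.248). In C57BL/6 the Atm arrays overlapped, at 6.52, 7.73 and 6.60 in irradiated against 7.01, 7.27 and 7.70 in sham arrays, and a second probe set of Atm had a log2 difference of 0.27 there, opposite in sign to the -0.38 of the probe set used.

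Msh6, which recognises base mismatches, had log2 values of 9.67, 9.82 and 9.66 in irradiated Balb/c arrays, against 9.55, 9.27 and 9.46 in sham Balb/c arrays, a log2 difference of 0.29 (limma, adjusted p = 0.277). In C57BL/6 its log2 difference was 0.28, with overlapping arrays. Neither difference passed the test.

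**Figure D3:**
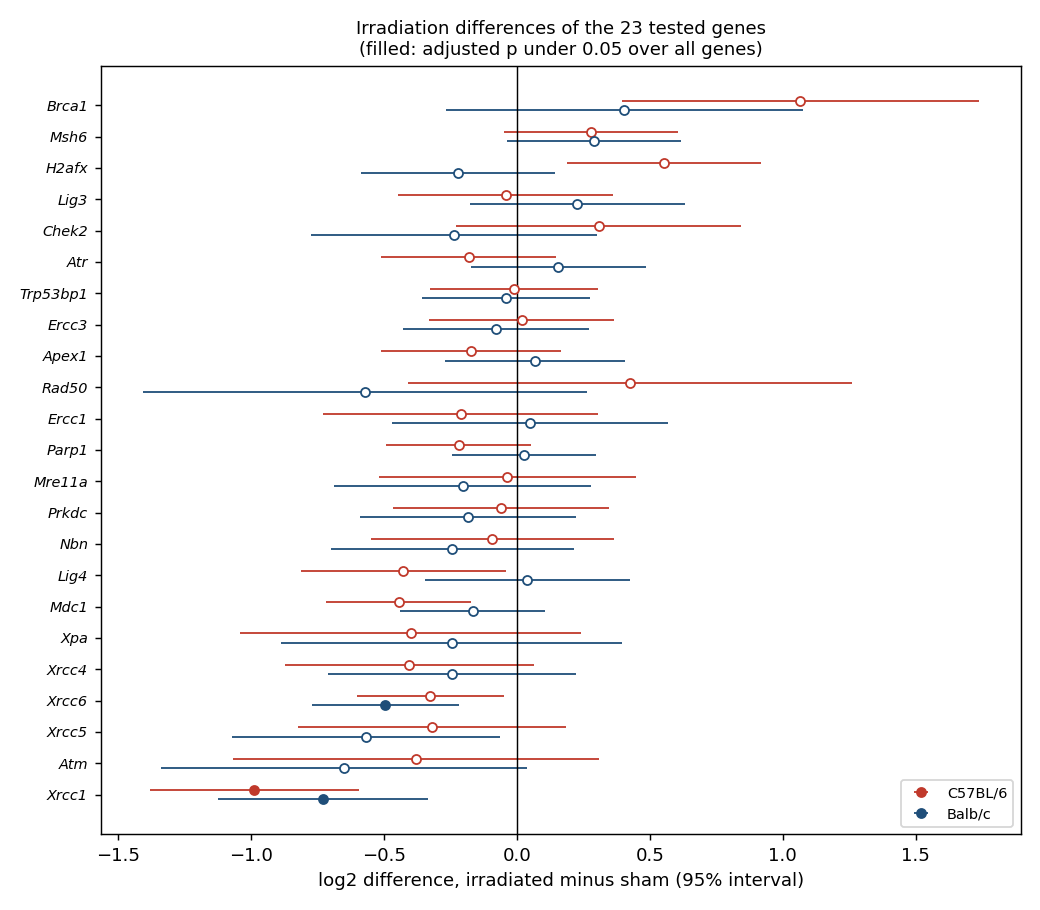
Log2 differences, irradiated minus sham, of the 23 tested genes in each strain, with 95% intervals and genes ordered by the difference averaged over strains. Filled points passed the test in limma (adjusted p under 0.05 over all genes), which are Xrcc1 in both strains and Xrcc6 in Balb/c, all to the left of zero.

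Averaged over both strains, which uses all 12 arrays, 3 of the 23 genes, Xrcc1, Xrcc6 and Mdc1, were called lower after irradiation. Over all tested genes 8.15% were called lower and 15.9% were called in either direction. Brca1 also lay past the threshold, on the higher side, but it entered the test only through irradiated arrays, so its values are given as a description and not counted with the others. Before adjustment, 7 of the 23 had p under 0.05 in limma, Brca1 among them, against 31.7% of all tested genes, and the median log2 difference of the 23 was -0.10, against -0.05 over all tested genes.

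The log2 difference of Xrcc1 was -0.86 ± 0.13 (limma, adjusted p = 0.00186), and it was called in all 24 alternatives in which it was tested (a filter at 7 left it out), at adjusted p-values up to 0.0120. That of Xrcc6 was -0.41 ± 0.09 (limma, adjusted p = 0.0130), called in 24 of 25 alternatives, the exception being the demand for a change of at least 1.5-fold. In C57BL/6 alone Xrcc6 had log2 values of 6.88, 6.86 and 7.03 in irradiated arrays, against 7.41, 7.02 and 7.32 in sham arrays, which overlapped slightly, with a log2 difference of -0.32 ± 0.13 (limma, adjusted p = 0.168).

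The average call of Mdc1 depended on single arrays. The log2 difference of Mdc1 was -0.31 ± 0.09 (limma, adjusted p = 0.0381). The call remained without Balb/c sham replicate 1 or Balb/c irradiated replicate 2 and was lost without each of the other 10 arrays, at an adjusted p of up to 0.0829 and log2 differences between -0.35 and -0.26. With the replicate number as a block the adjusted p was 0.0506, and without both arrays that stood apart 0.0542. The call was also lost with the 3' excess as a covariate (adjusted p = 0.0949), with trend and robust moderation (adjusted p = 0.0918), with no filter (adjusted p = 0.0539) and with a demand for 1.5-fold. In Balb/c alone Mdc1 had log2 values of 6.84, 6.90 and 6.62 in irradiated arrays, against 6.78, 7.15 and 6.93 in sham arrays, which overlapped.

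The log2 difference of Brca1 averaged over strains was 0.73 ± 0.22 (limma, adjusted p = 0.0420). It stayed past the threshold without C57BL/6 sham replicate 3, C57BL/6 irradiated replicate 1 or Balb/c irradiated replicate 1, and did not without each of the other 9 arrays, at an adjusted p of up to 0.0849 and log2 differences between 0.55 and 0.85. Without both arrays that stood apart the adjusted p was 0.0952. With the 3' excess as a covariate it was 0.144 (log2 difference 0.49), with no filter 0.125, with array weights 0.0519 and with all probe sets as features 0.0505. In Balb/c alone Brca1 had log2 values of 4.74, 5.92 and 4.92 in irradiated arrays, against 4.90, 4.80 and 4.67 in sham arrays. Only irradiated replicate 2, the array with the high 3' excess, exceeded the filter, and the log2 difference was 0.40 ± 0.30 (limma, adjusted p = 0.470).

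Averaged over strains, the end joining genes shared a sign, which is also that of 5216 of all 9120 tested genes. All 5 of them (Prkdc, Xrcc5, Xrcc6, Xrcc4 and Lig4) had an average log2 difference below zero. Their median was -0.32, against -0.05 over all tested genes, but only Xrcc6 passed the test. In Balb/c alone 4 of the 5 lay below zero, and Lig4 had a log2 difference of 0.04. Xrcc5 had -0.44 ± 0.16 (limma, adjusted p = 0.0891), and Xrcc4, which holds Lig4 at the break, had -0.32 ± 0.15 (limma, adjusted p = 0.165). A second probe set of Xrcc4 had an average log2 difference of -0.72 (limma over all probe sets, adjusted p = 0.0439), larger than that of the probe set used. Prkdc, the kinase subunit that Ku recruits, averaged 8.16 ± 0.36 in irradiated and 8.22 ± 0.22 in sham C57BL/6 arrays, and 8.25 ± 0.20 in irradiated and 8.44 ± 0.04 in sham Balb/c arrays (log2, SD, n = 3 each).

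Of the other break sensors and signalling genes none passed the test after irradiation. Trp53bp1, the chromatin adaptor that favours end joining over resection, averaged 12.4 ± 0.12 in irradiated and 12.4 ± 0.13 in sham C57BL/6 arrays, and 12.5 ± 0.21 in irradiated and 12.6 ± 0.18 in sham Balb/c arrays (log2, SD, n = 3 each). Its average log2 difference of -0.02 had a 95% interval of -0.25 to 0.20, and its other probe set differed by no more than 0.04 in either strain. Mre11a, Rad50 and Nbn form the complex that tethers broken ends, and their average log2 differences were -0.12, -0.07 and -0.17. Rad50 was the least precise of them, with log2 differences of 0.43 ± 0.38 in C57BL/6 and -0.57 ± 0.38 in Balb/c (SE) and arrays that overlapped in both. Atr, the kinase that answers single-stranded DNA at stalled forks, had an average log2 difference of -0.01 with a 95% interval of -0.24 to 0.22.

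Excision repair genes other than Xrcc1 did not pass the test after irradiation. Lig3, the ligase bound by Xrcc1, had log2 differences of -0.04 ± 0.18 in C57BL/6 and 0.23 ± 0.18 in Balb/c. Apex1, the endonuclease that cuts at sites left without a base, had -0.17 ± 0.15 in C57BL/6 and 0.07 ± 0.15 in Balb/c. In nucleotide excision repair, Xpa, which verifies the lesion, had -0.40 ± 0.29 and -0.24 ± 0.29, Ercc1, a subunit of the nuclease that cuts on the 5' side, had -0.21 ± 0.23 and 0.05 ± 0.23, and Ercc3, a helicase of the transcription factor TFIIH, had 0.02 ± 0.16 and -0.08 ± 0.16, in C57BL/6 and Balb/c in that order (log2 difference, SE). Averaged over strains, 18 of the 19 genes not called had 95% intervals within 1 log2 unit of zero, the exception being Atm.

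The difference between strains in their response was tested as an interaction, the Balb/c irradiation difference minus that in C57BL/6. None of the 23 genes passed the test in limma, 1 had an unadjusted p under 0.05 against 8.06% of all tested genes, and over all tested genes 0.0768% passed. That gene was H2afx, with an interaction of -0.77 ± 0.23 (log2, limma, unadjusted p = 0.00720, adjusted p = 0.465). In Balb/c its log2 values were 6.37, 5.67 and 6.13 in irradiated arrays, against 6.24, 6.28 and 6.32 in sham arrays, which overlapped, with replicate 2 the lowest. Without both arrays that stood apart the interaction of H2afx was -0.57. The intervals were wide, and for 7 of the 23 genes the 95% interval reached beyond 1 log2 unit, so an equal response in the strains was not shown either.

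Between the strains without irradiation, 4 of 23 genes differed. Chek2 was higher in Balb/c, while Ercc1, Apex1 and Xrcc6 were lower in Balb/c. These are 17.4% of the 23, where 10.5% of all tested genes were called between Balb/c sham and C57BL/6 sham arrays. In irradiated mice, which are other animals, Chek2 was again higher in Balb/c and Ercc1 and Xrcc6 lower, 3 of 23 genes, where 8.97% of all tested genes were called. The median log2 difference of the 23 genes was 0.01 in sham and 0.05 in irradiated mice, against 0.04 and 0.02 over all tested genes. Markers of microglia, of other cells and of proliferation differed between strains too. Of 9 microglial genes tested, 2 were called lower in Balb/c sham mice, Fcrls by -1.26 and Olfml3 by -0.45 (log2 difference, limma). In irradiated mice 1 of the 9 was called lower in Balb/c, Fcrls by -1.25. In sham mice 6 of 8 proliferation genes were called higher and 1 lower in Balb/c, with a median log2 difference of 1.09, 2 of 4 neutrophil genes and 1 of 7 border-associated macrophage genes were called lower, and so was the 1 B cell gene tested, by -2.25. Their summed log2 levels in sham arrays were 6.76 to 7.32 in Balb/c against 8.82 to 11.2 in C57BL/6 for neutrophil genes and 5.74 to 6.09 against 7.77 to 8.10 for B cell genes. Of the 4 B cell genes with a probe set, only Cd79b was tested, while Cd79a, Ms4a1 and Pax5 were never above 5. In irradiated mice 3 of 8 proliferation genes, 1 of 7 monocyte genes, 1 of 7 border-associated macrophage genes and the B cell gene were called lower in Balb/c, and 2 of 5 endothelial and pericyte genes higher. The part of these cells in the strain differences was not tested.

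Chek2 encodes the checkpoint kinase that Atm activates, which acts on p53 and on phosphatases of the cell cycle. In sham mice its log2 values were 9.41, 9.33 and 9.33 in Balb/c, against 8.09, 7.11 and 7.11 in C57BL/6. No Balb/c array came within 1 log2 unit of a C57BL/6 array. The log2 difference was 1.92 ± 0.24 (limma, adjusted p = 4.61e-04), about 3.77-fold higher in Balb/c, and it was called in all 26 alternatives, with log2 differences between 1.75 and 2.24.

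In irradiated mice Chek2 had log2 values of 9.32, 9.04 and 9.01 in Balb/c, against 8.03, 7.72 and 7.49 in C57BL/6, again without overlap. The log2 difference was 1.37 ± 0.24 (limma, adjusted p = 0.00470). It was called without each array in turn but not without both arrays that stood apart or with the 3' excess as a covariate, where the adjusted p reached 0.0545. Irradiated against sham, the log2 difference of Chek2 was 0.31 ± 0.24 in C57BL/6, with overlapping arrays, and -0.23 ± 0.24 in Balb/c, without overlap, and neither passed the test.

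Ercc1 ran the other way. In sham mice its log2 values were 7.38, 7.71 and 7.34 in Balb/c, against 9.11, 8.42 and 8.77 in C57BL/6, with no overlap and a log2 difference of -1.29 ± 0.23 (limma, adjusted p = 0.00468). This was called in all 26 alternatives. In irradiated mice the values were 7.22, 7.50 and 7.87 in Balb/c, against 8.75, 8.15 and 8.77 in C57BL/6, a log2 difference of -1.03 ± 0.23 (limma, adjusted p = 0.0187). The second call was lost without C57BL/6 irradiated replicates 1 or 3 or Balb/c irradiated replicates 1 or 2, at adjusted p-values of 0.0613 to 0.0708, and without both arrays that stood apart (adjusted p = 0.154). It was also lost with the 3' excess as a covariate (adjusted p = 0.0840), with no filter (adjusted p = 0.0718) and in a fit of the compared groups alone (adjusted p = 0.0588). A second probe set of Ercc1 was also lower in Balb/c, by log2 differences of -1.57 in sham and -1.77 in irradiated mice (limma over all probe sets, adjusted p = 0.0406 and 0.0244).

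Apex1 had log2 values of 10.09, 10.56 and 10.17 in Balb/c sham arrays, against 11.20, 10.69 and 11.00 in C57BL/6 sham arrays, a log2 difference of -0.69 ± 0.15 (limma, adjusted p = 0.0148). The groups did not overlap. The call was lost without C57BL/6 sham replicate 1 (adjusted p = 0.0514), Balb/c sham replicate 1 (adjusted p = 0.0682) or Balb/c sham replicate 3 (adjusted p = 0.0582), and in a fit of the compared groups alone (adjusted p = 0.0823). In irradiated mice the log2 values were 10.38, 10.34 and 10.30 in Balb/c, against 10.76, 10.75 and 10.87 in C57BL/6, with no overlap and a log2 difference of -0.45 that did not pass the test (limma, adjusted p = 0.104). The other 2 measured probe sets of Apex1 had log2 differences of -0.67 and -0.65 in sham mice and of -0.88 and -0.64 in irradiated mice, of which all but the first were called over all probe sets.

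Xrcc6, lower after irradiation, was also lower in Balb/c. The sham values given above for it differed by -0.50 ± 0.13 between Balb/c and C57BL/6 (log2 difference, limma, adjusted p = 0.0281), a call lost without C57BL/6 sham replicates 1 or 3 or Balb/c sham replicates 1 or 3, at adjusted p-values of 0.0693 to 0.108, and also with trend and robust moderation (adjusted p = 0.0794), in a fit of the compared groups alone and with a demand for 1.5-fold. In irradiated mice the log2 difference was -0.67 ± 0.13 (limma, adjusted p = 0.00654), which was called without each array in turn but not without both arrays that stood apart (adjusted p = 0.0817) or with the 3' excess as a covariate (adjusted p = 0.0964). The sham difference between strains and the irradiation difference within a strain share the sham arrays. Xrcc6 thus had its lowest mean in Balb/c irradiated arrays, at 6.26 ± 0.06, then 6.75 ± 0.13 in Balb/c sham, 6.93 ± 0.09 in C57BL/6 irradiated and 7.25 ± 0.21 in C57BL/6 sham arrays (log2, SD, n = 3 each), where the middle groups nearly met, each with an array at 6.86.

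Chek2, Xrcc6, Xrcc1, Mdc1 and Brca1 each rest on 1 probe set above the filter. Probes on such arrays are designed on a reference sequence, and whether those of each gene match the Balb/c sequence was not tested.

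**Figure D4:**
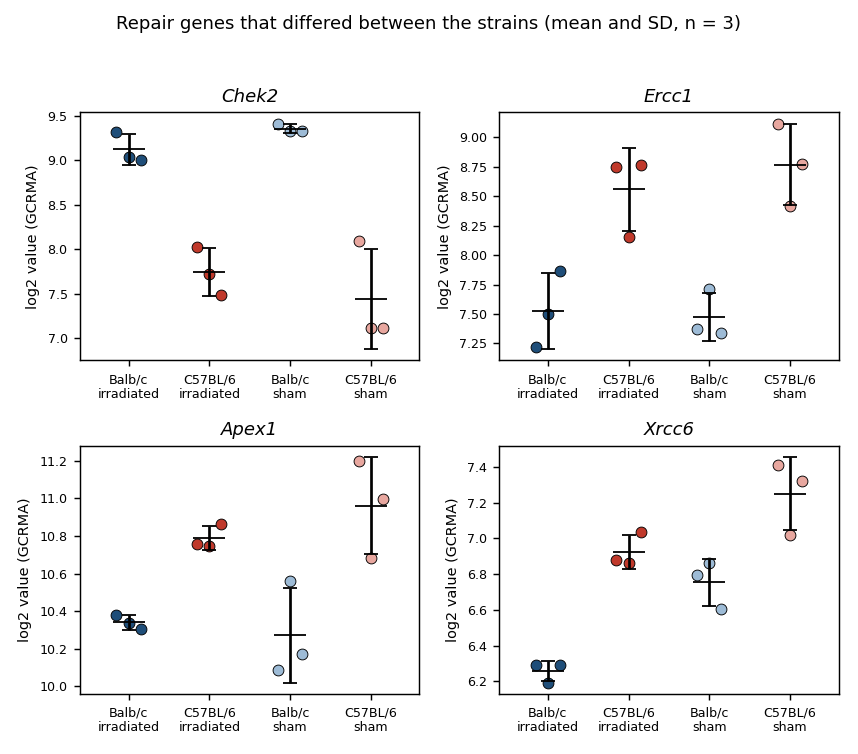
Log2 values (GCRMA) by array of the 4 genes called between the strains, with Balb/c left of C57BL/6 among irradiated and then among sham arrays. Points are arrays and bars the mean and SD of 3 arrays. Balb/c arrays lie above C57BL/6 arrays for Chek2 and below them for Ercc1, Apex1 and Xrcc6, under both treatments.

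The promoters of the genes on which these comparisons turn most are shown to set their sequence beside their values: Xrcc1 and Xrcc6, lower after irradiation, Brca1, given as a description, and Chek2, higher in Balb/c. Each is the 250 bases before 1 annotated RefSeq transcription start (GRCm38.p6), 5′ to 3′ on the strand of the gene, from C57BL/6-derived reference sequence. Which start these cells use was not measured. The annotated Xrcc6 gene runs from 81987833 to 82040085 on chromosome 15, so its window lies inside the gene and upstream of 1 internal start, while the Xrcc1 window lies before the first base of the annotated gene at 24546699 on chromosome 7. They lie at chr7:24546449-24546698 (plus strand), chr15:82016119-82016368 (plus strand), chr11:101551956-101552205 (minus strand) and chr5:110839733-110839982 (plus strand). Capitals mark CCAAT, the NF-Y box, GGGCGG, the GC box, and TTTCCCGC or TTTGGCGC, 2 forms of the E2F site, on both strands, with no overlap between motifs.
Xrcc1: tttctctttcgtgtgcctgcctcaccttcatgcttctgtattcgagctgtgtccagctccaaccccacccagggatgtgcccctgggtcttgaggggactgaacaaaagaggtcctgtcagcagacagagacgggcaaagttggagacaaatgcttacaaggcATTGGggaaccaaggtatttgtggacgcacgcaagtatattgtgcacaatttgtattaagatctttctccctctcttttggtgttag
Xrcc6: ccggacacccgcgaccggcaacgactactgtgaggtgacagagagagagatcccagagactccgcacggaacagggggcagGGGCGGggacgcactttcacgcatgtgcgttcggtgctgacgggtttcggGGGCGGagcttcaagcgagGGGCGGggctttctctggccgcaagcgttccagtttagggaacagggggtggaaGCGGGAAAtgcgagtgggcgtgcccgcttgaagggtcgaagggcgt
Brca1: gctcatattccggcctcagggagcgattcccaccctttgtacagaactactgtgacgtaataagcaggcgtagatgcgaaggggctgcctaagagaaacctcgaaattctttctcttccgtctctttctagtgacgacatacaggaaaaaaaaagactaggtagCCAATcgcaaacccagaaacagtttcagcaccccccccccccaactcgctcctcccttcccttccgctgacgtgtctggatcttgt
Chek2: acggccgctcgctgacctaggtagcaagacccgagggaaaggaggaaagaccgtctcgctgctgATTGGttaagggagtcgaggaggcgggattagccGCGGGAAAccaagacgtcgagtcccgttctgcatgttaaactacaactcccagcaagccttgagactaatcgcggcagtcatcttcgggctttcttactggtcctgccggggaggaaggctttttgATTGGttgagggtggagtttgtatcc

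The Xrcc6 window held 3 GC boxes and 1 E2F form among 25 CpG pairs, and the Chek2 window held 2 NF-Y boxes and 1 E2F form among 17 CpG pairs. The Brca1 window held 1 NF-Y box and 12 CpG pairs, and the Xrcc1 window 1 NF-Y box and 5 CpG pairs. Of 32851 RefSeq promoters in the same table, 33.8% held an NF-Y box, 32.7% a GC box and 1.3% one of these E2F forms. Of the 32 repair genes 26 had an entry, and 14, 16 and 5 of these held the 3 motifs in that order. A match is a run of letters and not evidence of binding.

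Among other genes of the same pathways, 98 of 111 listed had a probe set here and 57 were tested. In C57BL/6 mice 1 was called higher and 1 lower after irradiation, in Balb/c mice 2 higher and 0 lower, and averaged over strains 1 higher and 3 lower. These are 3.51%, 3.51% and 7.02% of the 57, against 3.67%, 6.15% and 15.9% of all tested genes, and the counts are too small to read a direction from them. Polk, a polymerase that copies past damaged bases, was the gene called in both strains. Its log2 values were 8.78, 9.29 and 9.02 in irradiated C57BL/6 arrays, against 8.16, 8.42 and 8.45 in sham C57BL/6 arrays. In Balb/c they were 8.95, 9.07 and 9.44 in irradiated arrays, against 8.57, 8.36 and 8.47 in sham arrays. Irradiated arrays were higher without overlap in both strains, by log2 differences of 0.69 in each (limma, adjusted p = 0.0465 in C57BL/6 and 0.0368 in Balb/c). Without both arrays that stood apart neither strain's call remained (adjusted p = 0.156 in C57BL/6 and 0.0846 in Balb/c), nor with the 3' excess as a covariate (0.0631 and 0.188), while the average difference of 0.69 was called with all arrays (adjusted p = 0.00397) and in both of those fits (0.0191 and 0.0175).

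Rad1, a subunit of the ring-shaped clamp that activates Atr, had log2 values of 4.95, 5.16 and 5.27 in irradiated C57BL/6 arrays, against 6.08, 5.80 and 5.67 in sham C57BL/6 arrays. The irradiated arrays were lower without overlap, by -0.72 ± 0.16 (log2 difference, limma, adjusted p = 0.0398). Parp3, a relative of Parp1, was higher in irradiated than in sham Balb/c arrays by 0.98 ± 0.23 (limma, adjusted p = 0.0327). Called lower on average beside Rad1 were Rad23b, which helps to find lesions in nucleotide excision repair, at -0.52 ± 0.13, and Fancl, the ubiquitin ligase of the Fanconi anemia pathway, at -0.35 ± 0.10. Leaving out both arrays that stood apart, the calls of Rad1 in C57BL/6 (adjusted p = 0.0559), Parp3 in Balb/c (0.116) and Fancl on average (0.0578) were lost, and those of Rad1 and Rad23b on average remained (0.0095 and 0.036). With the 3' excess as a covariate Parp3 (0.218) and Rad23b (0.0574) were not called.

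Between strains, 3 of the 57 were called higher and 2 lower in Balb/c sham mice, and 2 higher and 1 lower in irradiated Balb/c mice. These are 8.77% and 5.26% of the 57, against 10.5% and 8.97% of all tested genes, again from small counts. Mlh3, a mismatch repair gene, was higher in Balb/c in both comparisons, by 1.05 ± 0.24 in sham and 0.99 ± 0.24 in irradiated mice, and Faap24 of the Fanconi anemia pathway was lower in both, by -1.42 ± 0.21 and -1.10 ± 0.21 (log2 difference, SE). The higher calls were completed by Rad17, the loader of the Rad1 clamp (0.70 ± 0.12), and Rpa2, which coats single-stranded DNA (1.24 ± 0.25), in sham mice and Gtf2h4, a subunit of TFIIH (0.62 ± 0.12) in irradiated mice, and the lower calls by Parp3 in sham mice (-1.60 ± 0.23). The calls of Mlh3 and Gtf2h4 in irradiated mice were lost without both arrays that stood apart (adjusted p = 0.115 and 0.0711) and with the covariate (0.177 and 0.106), while Faap24 kept its call in both fits.

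Homologous recombination genes are mostly transcribed in cycling cells, so genes of proliferation are given beside Brca1. Of 8 tested of 11 listed, 6 were called higher and 0 lower in irradiated C57BL/6 mice, with a median log2 difference of 1.90. In irradiated Balb/c mice 0 were called higher and 1 lower, with a median of 0.09. In the fit without both arrays that stood apart 5 were called higher in C57BL/6, with a median of 1.86, and 1 lower in Balb/c, with a median of -0.09. Their summed log2 levels were 12.56 to 12.86 in irradiated against 12.24 to 12.50 in sham C57BL/6 arrays, and 12.09 to 12.29 in irradiated against 12.38 to 12.53 in sham Balb/c arrays. These sums were taken on the linear scale, so the most abundant gene, Pcna, weighs most in them. Pcna averaged 11.97 in irradiated and 11.95 in sham C57BL/6 arrays, and 11.50 in irradiated and 11.83 in sham Balb/c arrays (log2). Mki67, a nuclear protein of cycling cells, had log2 values of 8.81, 9.26 and 9.01 in irradiated C57BL/6 arrays, against 6.37, 5.73 and 6.17 in sham C57BL/6 arrays. In Balb/c it had 8.49, 8.69 and 7.88 in irradiated arrays, against 7.99, 7.87 and 7.23 in sham arrays. Irradiated arrays were higher in C57BL/6, by 2.94 ± 0.26 (limma, adjusted p = 5.28e-04, or 0.00617 without both arrays), and overlapped with sham in Balb/c, where the log2 difference was 0.66 ± 0.26 (limma, adjusted p = 0.168). The part of cycling cells in the Brca1 difference was not tested.

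**Figure D5:**
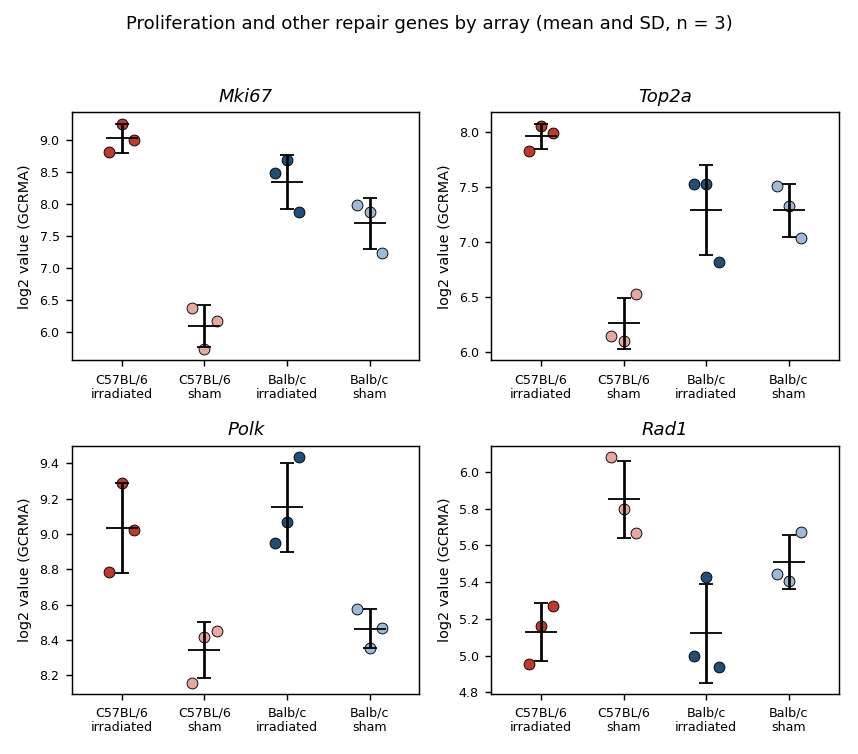
Log2 values (GCRMA) by array of the proliferation genes Mki67 and Top2a and of the repair genes Polk and Rad1 from the wider pathway list, with irradiated arrays left of sham arrays in each strain. Points are arrays and bars the mean and SD of 3 arrays. Mki67 and Top2a separate irradiated from sham arrays in C57BL/6 and overlap in Balb/c, while Polk is higher in irradiated arrays of both strains.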

How the data were processed

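RNA of CD11b+ hippocampal cells from 12 mice was measured on Affymetrix arrays. Per the submitters' processing notes, the authors ran GCRMA (version not given), and they deposited a table of log2 values for 45101 probe sets. Its values span 2.23 to 16.2, and all arrays shared the same sorted values, with a median of 2.44, as quantile normalisation gives. No scanner files were used here, and background correction was not varied apart from a floor.

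Probe sets were named through the platform annotation. There were 64 controls, 34945 probe sets with 1 symbol, 932 with several and 9160 with none, and genes were named only from the first kind. Symbols of 34741 were updated through the Entrez identifier. Each of 18193 genes was represented by its probe set with the highest mean, and 9120 passed the filter, above 5 in at least 3 arrays.

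The linear model had the 4 group means and left 8 degrees of freedom for the spread (lmFit and eBayes of limma 3.58.1, under R 4.3.3). Within a comparison, Benjamini-Hochberg adjustment ran over all 9120 genes, and a gene was called at adjusted p below 0.05. The 3' excess was compared by an exact permutation test within strains. The test was also tried on simulated data before use. All 32 genes are named whatever they showed, and of other pathway genes up to 3 per direction with the smallest p among those called. The members, lists and alternatives were chosen with earlier results of these data known, so none is independent support.

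Replicate numbers were checked for pairing. Of 18 same-numbered pairs across groups, 9 had correlated deviations above 0.1, from -0.05 to 0.45. The 3 pairs of irradiated Balb/c and C57BL/6 arrays were all above it, and no other set of 3 was. Pairs of unlike number were not compared, so whether the numbers pair arrays was not settled. Promoters are RefSeq windows of GRCm38.p6, read with Python 3.11.15. Alternatives covered filters, a floor, probe set choice, centring, variance moderation, array weights, arrays fitted, a replicate block, thresholds, the 3' excess as a covariate and leaving out arrays. The pair of arrays that stood apart was left out as an alternative added after seeing the data.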

Additional observations from a re-analysis of the deposited data

How the results depend on the processing

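Counts are of the 23 tested repair genes called, with Brca1 included wherever it passed the threshold. In the fit as reported, 3.67% of all tested genes were called in C57BL/6, 6.15% in Balb/c and 15.9% averaged over strains. Between sham strains the share was 10.5%, and between irradiated strains 8.97%. With no filter on low values the count was 0 in C57BL/6 (1 as reported), 0 in Balb/c (2 as reported) and 2 averaged over strains (4 with Brca1), and with a filter at 7 it was 0, 1 and 1, where Xrcc1 lies below the filter. Fitting only the compared groups gave 0 in C57BL/6, 1 in Balb/c and 2 between sham strains (4 as reported). At an adjusted p under 0.10 the C57BL/6 count was 4. A change of at least 1.5-fold left 1 in Balb/c and 2 on average. With all probe sets as features the Balb/c count was 1, and with trend and robust moderation 0. With the 3' excess as a covariate it was 3 in C57BL/6, 0 in Balb/c and 0 between irradiated strains (3 as reported). Without both arrays that stood apart it was 0 in C57BL/6, 0 in Balb/c, 2 on average and 0 between irradiated strains. The causes of these shifts were not tested, except that fewer arrays or genes enter some fits.

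Leaving out each array in turn gave 0 to 3 genes in C57BL/6, 0 to 2 in Balb/c, 2 to 4 on average, 0 to 0 for the interaction, 2 to 4 between sham strains and 2 to 4 between irradiated strains. Over all 9120 tested genes the same fits called 113 to 351 in C57BL/6, 218 to 592 in Balb/c and 923 to 1455 on average. They called 2 to 8 for the interaction, 681 to 939 between sham strains and 576 to 847 between irradiated strains. With all arrays these counts were 335, 561, 1447, 7, 954 and 818. The mean 3' excess in irradiated minus sham arrays was 0.269 (two-sided exact permutation within each strain, p = 0.215) and ranged from 0.124 to 0.405 without single arrays.

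With the replicate number as a block the Balb/c count was 1 and the average count 3, since Xrcc6 and Mdc1 lost their calls. Between irradiated strains, where all 3 same-numbered pairs correlated above 0.1, the blocked count was 3 and no call changed.

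Of 138 pairs of gene and comparison 14 were called, 3 of them under every alternative (Xrcc1 on average, and Chek2 and Ercc1 between sham strains), and 0 of the 14 changed sign under any alternative run. Of the 124 not called, 12 were called under some alternative. Centring arrays on the median of tested genes moved no array by more than 0.04 log2 units. Signal near the bottom of the scale limits what can be said of the 9 genes below the filter.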
